A study of Mus musculus with 4 samples.

Results

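The genes described here are 34 heat-shock chaperones, co-chaperones and their regulators, taken by symbol from the 32285 genes measured in single cells of mouse pancreatic islets. All 34 symbols were found, each with 1 gene identifier. They were divided by textbook knowledge of their regulation and place in the cell into 12 stress-inducible members, 10 constitutive cytosolic members, 3 mitochondrial members, 7 subunits of the TRiC chaperonin, and the transcription factors Hsf1 and Hsf2. The question was how the levels of these genes differed between Malat1-null and wild-type islets, gene by gene and cell class by cell class.

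The first group was Malat1-/- islets of the C57BL/6 strain treated with TCDD, a dioxin, and the second was wild-type C57BL/6 islets treated with TCDD. Each group was 1 10x Genomics 3′ library of cultured islets dispersed to single cells. Dose, exposure time, age and the number of mice pooled are not stated in the labels, and the 2 libraries treated with the solvent DMSO were not analysed here. With 1 library per group no difference below has a replicate check, no p-value can be given, and genotype cannot be told apart from library, so every interval covers counting error only.

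Barcodes with at least 1000 unique molecular identifiers (UMIs, which count captured RNA molecules) numbered 3198 in the Malat1-null library and 2166 in the wild-type library, with medians of 34038 and 26116 UMIs. The libraries shared 1 of these barcodes, against 1.02 expected by chance. The labels call the cells beta cells, yet by marker genes only 1796 of the Malat1-null barcodes and 912 of the wild-type barcodes were beta-like. The remainder held 49 and 29 alpha-like, 35 and 22 delta-like, 21 and 140 ductal-like, 40 and 89 endothelial-like, 310 and 197 B cell-like, 157 and 296 T or NK-like, and 49 and 274 acinar-like barcodes, the Malat1-null library first in each pair. Another 726 Malat1-null and 197 wild-type barcodes were left unnamed. Malat1 itself had 0.290 CPM (UMI counts scaled to a common library total) in the Malat1-null beta-like cells and 8975 CPM in the wild-type ones, as the labels state.

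Heat-shock proteins bind unfolded or partly folded proteins. HSP70 proteins (Hspa genes) work in cycles of ATP hydrolysis that are started by J-domain proteins (Dnaja and Dnajb genes) and reset by nucleotide exchange factors such as Hsph1, Hspa4, Hspa4l and Bag3. HSP90 acts later on kinases, receptors and other clients with co-chaperones such as Stip1, Ahsa1, Ptges3, Cacybp, Fkbp4 and Chordc1, small heat-shock proteins (Hspb1, Hspb8, Cryab) hold aggregating proteins, and TRiC folds actin and tubulin. When unfolded protein accumulates, the factor HSF1 forms trimers and binds heat-shock elements, repeats of the unit nGAAn in alternating orientation, upstream of the inducible genes. Beta cells carry a heavy load of secretory protein, most of it folded in the endoplasmic reticulum, which has its own chaperones.

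Promoter stretches are shown because the heat-shock element is the known control sequence of the inducible members. RefSeq promoter windows (build GRCm38.p6, from 250 bases before to 50 bases after the start) were found for 27 of the 34 members. They were searched on both strands for a pair of inverted units, GAANNTTC or TTCNNGAA, and for a triplet, GAANNTTCNNGAA or TTCNNGAANNTTC, which contains the pair. A gene with several windows was counted once, if any of them matched. A pair was found for 4587 of all 27025 genes (17.0%) and a triplet for 179 (0.662%). Of the members, 14 of 27 held a pair, namely 8 of 10 inducible, 2 of 8 constitutive cytosolic, 2 of 2 mitochondrial, 2 of 6 TRiC and 0 of 1 factor genes, and 4 of 27 held a triplet (Hsph1, Chordc1, Hspe1 and Hspd1). The Hspe1 window and the matching Hspd1 window cover nearly the same bases on opposite strands, so the same units are counted for both genes. The other Hspd1 window held no pair. A match of letters is a description of the sequence and does not show binding. Capitals mark the matched units.
Hspa1a: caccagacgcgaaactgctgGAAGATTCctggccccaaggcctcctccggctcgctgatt
Hspb1: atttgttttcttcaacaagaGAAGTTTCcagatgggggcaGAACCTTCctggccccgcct
Hsph1: gcagaTTCTGGAAAGTTCtcctcagtaggc
Chordc1: aaccgGAACGTTCGGGAAAATTCCTGAAgc
Hspe1: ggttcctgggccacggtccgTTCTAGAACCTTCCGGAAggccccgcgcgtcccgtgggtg
Dnaja1: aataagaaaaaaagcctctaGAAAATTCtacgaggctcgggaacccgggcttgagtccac

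The Hspa1a stretch lies on the minus strand at chr17:34972221-34972280, and the same letters stand at chr17:34959303-34959362 before its neighbour Hspa1b, whose 300-base window was identical to that of Hspa1a at 296 positions. The other stretches lie at chr5:135887782-135887841 on the plus strand (Hspb1), chr5:149636276-149636305 on the minus strand (Hsph1), chr9:18292258-18292287 on the plus strand (Chordc1), chr1:55088039-55088098 on the plus strand (Hspe1) and chr4:40722324-40722383 on the plus strand (Dnaja1). Not all are upstream of the start: the Hsph1 stretch runs from 10 to 39 after it, and the Chordc1 stretch spans it (-9 to 20). The other printed stretches lie before it. The pairs counted for Bag3 (at 42) and Hspb8 (at 2) also lie after the start. Hspa1a, Hspa1b, Hspb1 and Hsph1 are shown because the comparison between genotypes turned on them. So it did on Dnajb1, for which no stretch is shown, since neither of its 2 windows held a pair. Chordc1, Hspe1 and Dnaja1 are shown as genes that also hold such units and differed by less than 1.5-fold between the libraries over all beta-like cells. Hspe1 and Dnaja1 did pass 1.5-fold downwards within a beta-like cluster described below.

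In beta-like cells, 5 of the 31 members with enough counts were at least 1.5-fold lower in the Malat1-null library, and none was at least 1.5-fold higher. All 5 (Hspa1a, Hspa1b, Hspb1, Dnajb1 and Hsph1) are inducible genes. Of all 6177 genes counted, 1.76% reached that fold downwards and 1.67% upwards, and their median log2 ratio was 0.04. A gene was counted when the mean of its 2 CPM values was at least 10 and it had at least 50 UMIs over both libraries. Hspb8, Cryab and Hsf1 fell short of that minimum. The median log2 ratio was -0.31 over the 12 inducible members, -0.10 over the 10 constitutive cytosolic members, -0.09 over the 3 mitochondrial members and -0.07 over the 7 TRiC subunits.

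Hspa1a and Hspa1b, the neighbouring genes of inducible HSP70, showed the widest gap. Hspa1a (chr17:34969190-34972156, mm10, minus strand) had 1029 UMIs or 11.5 CPM (95% exact Poisson interval 10.8 to 12.2) in Malat1-null beta-like cells. In wild-type beta-like cells it had 4270 UMIs or 68.9 CPM (66.8 to 71.0). The ratio was 0.167 (0.156 to 0.178), or 6.00-fold lower in the Malat1-null library. Hspa1b (chr17:34956436-34959238, minus strand) had 8.01 CPM in Malat1-null and 57.9 CPM in wild-type cells, a ratio of 0.138 (0.127 to 0.150). The 2 genes encode nearly the same protein, but none of the 100-base windows near the 3′ ends of their transcripts was shared with the other, so reads from those ends can be assigned to 1 of them.

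The other 3 genes that passed 1.5-fold belong to 3 further families. Hspb1 (chr5:135887919-135889563), the small heat-shock protein HSP27 of human (HSP25 in mouse), had 30.3 CPM in Malat1-null and 64.7 CPM in wild-type cells, a ratio of 0.469 (0.446 to 0.492). Dnajb1, the inducible J-domain partner of HSP70, had 13.6 CPM in Malat1-null and 27.6 CPM in wild-type cells, a ratio of 0.490 (0.455 to 0.528). Hsph1, the HSP110 nucleotide exchange factor, had 40.9 CPM in Malat1-null and 68.6 CPM in wild-type cells, a ratio of 0.596 (0.570 to 0.623). Hspb1 shared 33.8% of its 100-base windows near the 3′ end with the pseudogene Hsp25-ps1, so some of its reads could fall away or be misplaced in counting.

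The other inducible members counted differed by less than 1.5-fold. Hsp90aa1, the inducible HSP90, had 413 CPM in Malat1-null and 506 CPM in wild-type cells, a ratio of 0.816 (0.804 to 0.829). Chordc1, an HSP90 co-chaperone, had 25.0 and 28.2 CPM (ratio 0.887), and Hspa4l, an HSP110-type exchange factor, had 23.4 and 24.5 CPM (ratio 0.953). Bag3, the co-chaperone of chaperone-assisted autophagy, stood at 20.3 CPM in Malat1-null and 18.3 CPM in wild-type cells (ratio 1.11, 1.03 to 1.20), and Dnajb4 at 14.3 and 13.7 CPM (ratio 1.04). Cryab, the alphaB-crystallin gene, had only 15 UMIs in Malat1-null and 13 UMIs in wild-type beta-like cells. Hspb8, the partner of Bag3, had 304 UMIs in Malat1-null and 172 in wild-type cells, 3.39 and 2.77 CPM.

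The constitutive machinery was close to even between the libraries. Hspa8, the constitutive HSP70, had 432 CPM in Malat1-null and 431 CPM in wild-type beta-like cells (ratio 1.00, 0.986 to 1.02), and Hsp90ab1, the constitutive HSP90, had 769 and 838 CPM (ratio 0.918). Among their J-domain partners and exchange factor, the ratios were 0.954 for Dnaja1, 0.984 for Dnaja2 and 0.917 for Hspa4. The HSP90 co-chaperones ran from 0.807 for Cacybp, with 71.4 CPM in Malat1-null and 88.4 CPM in wild-type cells, through 0.847 for Stip1, 0.859 for Ahsa1 and 0.968 for Ptges3 to 1.10 for Fkbp4. None of these 10 genes reached 1.5-fold in either direction.

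The mitochondrial chaperonin subunit Hspe1 (HSP10) had 138 CPM in Malat1-null and 179 CPM in wild-type cells, a ratio of 0.773 (0.753 to 0.793). Its partner Hspd1 (HSP60), which is transcribed from the same divergent promoter region, had a ratio of 0.942, and Hspa9, the mitochondrial HSP70, of 1.04. The TRiC subunits lay between 0.864 for Cct4 and 1.12 for Cct3, with Tcp1 at 0.953, Cct2 at 0.949, Cct5 at 1.10, Cct7 at 1.04 and Cct8 at 0.909. Hsf1, the main heat-shock factor, had 9.55 CPM in Malat1-null and 8.68 CPM in wild-type cells, and Hsf2 had 13.7 and 15.6 CPM (ratio 0.874). The messages of both factors thus differed by less than 1.5-fold.

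**Figure D1:**
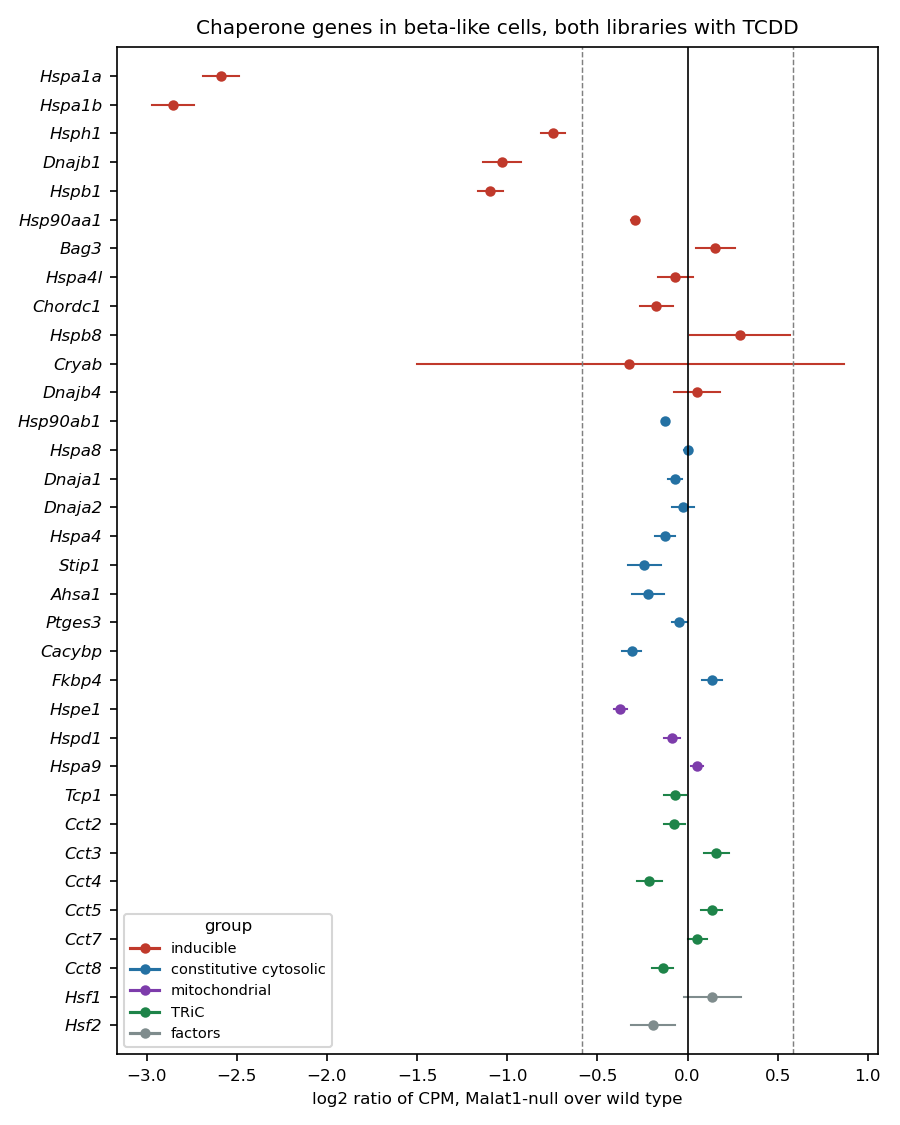
Log2 ratio of CPM in beta-like cells, Malat1-null over wild type, for all 34 members (points) with 95% exact Poisson intervals (lines, counting error only), coloured by group; 1 library per genotype, both with TCDD. Dashed lines mark 1.5-fold. Hspa1a, Hspa1b, Hspb1, Dnajb1 and Hsph1 lie left of the lower line, with the inducible genes Bag3, Hspa4l, Chordc1 and Dnajb4 near 0 among the constitutive members.

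The 2 beta-like populations differed in other ways, and the part of these in the chaperone values was not tested. Median depth was 47954.5 UMIs per beta-like cell in Malat1-null and 61456.5 in wild type. The 10 acinar markers, all detected in both, summed to 30.4 CPM in Malat1-null and 188 CPM in wild-type beta-like cells. Of the 10 ductal markers, 8 were detected in Malat1-null (Cftr and Mmp7 at 0) and 7 in wild-type cells (Sox9, Cftr and Mmp7 at 0), with sums of 490 and 1031 CPM. Insulin transcripts also weighed more in the Malat1-null cells, with Ins2 at 436984 CPM against 337021 CPM in wild type.

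The inducible HSP70 genes were detected in few beta-like cells of either library. At their full depth, 6.18% of Malat1-null and 13.2% of wild-type beta-like cells held an Hspa1a UMI. After each cell was thinned to 5000 UMIs, which left out 35 Malat1-null and 13 wild-type cells, the shares were 1.31% (95% exact binomial interval 0.830 to 1.95) in Malat1-null and 5.45% (4.06 to 7.14) in wild type. Free RNA in the suspension could give single UMIs, since barcodes with 10 to 100 UMIs held Hspa1a at 27.9 CPM in the Malat1-null and 55.3 CPM in the wild-type library. In the same barcodes Hspb1 stood at 55.0 CPM in Malat1-null and 141 CPM in wild type, and Dnajb1 at 28.8 and 41.8 CPM, above the beta-like levels of these genes in both libraries. Hsph1 stood there at 29.7 and 43.6 CPM, below its beta-like levels. The part of free RNA in the ratios was not tested. B cell-like cells, taken as a class with little of the gene, gave 0 of 310 Malat1-null cells (which allows up to 0.968%) and 0 of 197 wild-type cells (up to 1.52%) when thinned to 1000 UMIs. Beta-like cells thinned the same way gave 0.612% in Malat1-null and 3.07% in wild type, so the Malat1-null share was within what the B cell-like count allows. Median depths before thinning were 5346 and 7444 UMIs in those B cell-like cells.

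Most of the inducible HSP70 message sat in a small number of cells. A Fano factor, the variance over the mean of the UMIs per cell, is 1 for random counting, and in cells thinned to 5000 UMIs it was 113 in Malat1-null and 33.8 in wild type for Hspa1a and 26.7 and 26.5 for Hspa1b. The Malat1-null value for Hspa1a includes a single barcode, described below, with 320 Hspa1a UMIs at full depth. No value without that barcode was computed, so the gap between 113 and 33.8 does not compare the libraries in spread. For Hspb1 it was 12.4 in Malat1-null and 10.4 in wild type, for Dnajb1 1.95 and 6.32, and for Hsph1 1.43 and 4.90. For Hsp90aa1, an inducible member that differed little between genotypes, it was 1.77 in Malat1-null and 8.76 in wild type. That wild-type value was above those of Dnajb1 and Hsph1. The remaining inducible members with a value reached at most 1.20 in Malat1-null and 1.12 in wild type. The 22 members that are not inducible reached at most 1.93 in Malat1-null and 3.81 in wild type. The 5% of beta-like cells with most UMIs of the gene held 98.0% of the Hspa1a UMIs in Malat1-null and 98.0% in wild type, and 100% and 97.7% of the Hspa1b UMIs. That share is bounded by how few cells hold a UMI at all (6.18% of Malat1-null cells for Hspa1a and 4.34% for Hspa1b), so it is near its ceiling for these genes and is not comparable with that of abundant ones. For Hspb1 it was 90.6% in Malat1-null and 76.5% in wild type. For Dnajb1 the shares were 28.3% in Malat1-null and 60.3% in wild type, and for Hsph1 31.5% and 47.4%. The constitutive, mitochondrial and TRiC members lay between 12.9% and 25.0% in both libraries, with more cells holding a UMI. Of the inducible members that differed little between genotypes, Hsp90aa1 had 17.3% in Malat1-null and 20.2% in wild type, and Bag3 24.9% and 24.0%.

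Cells with at least 1000 CPM of Hspa1a and Hspa1b together, a limit chosen after the values were seen, are called Hspa1-high here. They numbered 7 of 1796 Malat1-null beta-like cells (0.390%, 0.157 to 0.801) and 29 of 912 wild-type ones (3.18%, 2.14 to 4.54). These cells held 75.4% of the Hspa1a and Hspa1b UMIs of Malat1-null and 92.0% of those of wild-type beta-like cells. The limit cuts a continuous range, with 7 Malat1-null and 12 wild-type cells between 500 and 2000 CPM. At a limit of 100 CPM the counts were 22 cells (1.23%) in Malat1-null and 50 cells (5.48%) in wild type.

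A single Malat1-null barcode stood apart at 43047 CPM, against 8815 CPM in the next one, while the 3 highest wild-type cells had 23344, 19581 and 16723 CPM. That barcode alone held 320 of the 1029 Hspa1a UMIs (31.1%) of the Malat1-null library. When the barcode with most UMIs of the gene was left out of each library, the log2 ratio of Hspa1a was -2.98, against -2.59 with it, and that of Hspb1 was -1.22, against -1.09. When the 5% of beta-like cells with the highest share of UMIs in inducible members were left out, Dnajb1 (log2 ratio -0.07) and Hsph1 (-0.35) no longer passed 1.5-fold, Hspa1a (-1.92) and Hspa1b (-2.01) fell under the count minimum, and Hspb1 (-2.66) alone was still called.

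**Figure D2:**
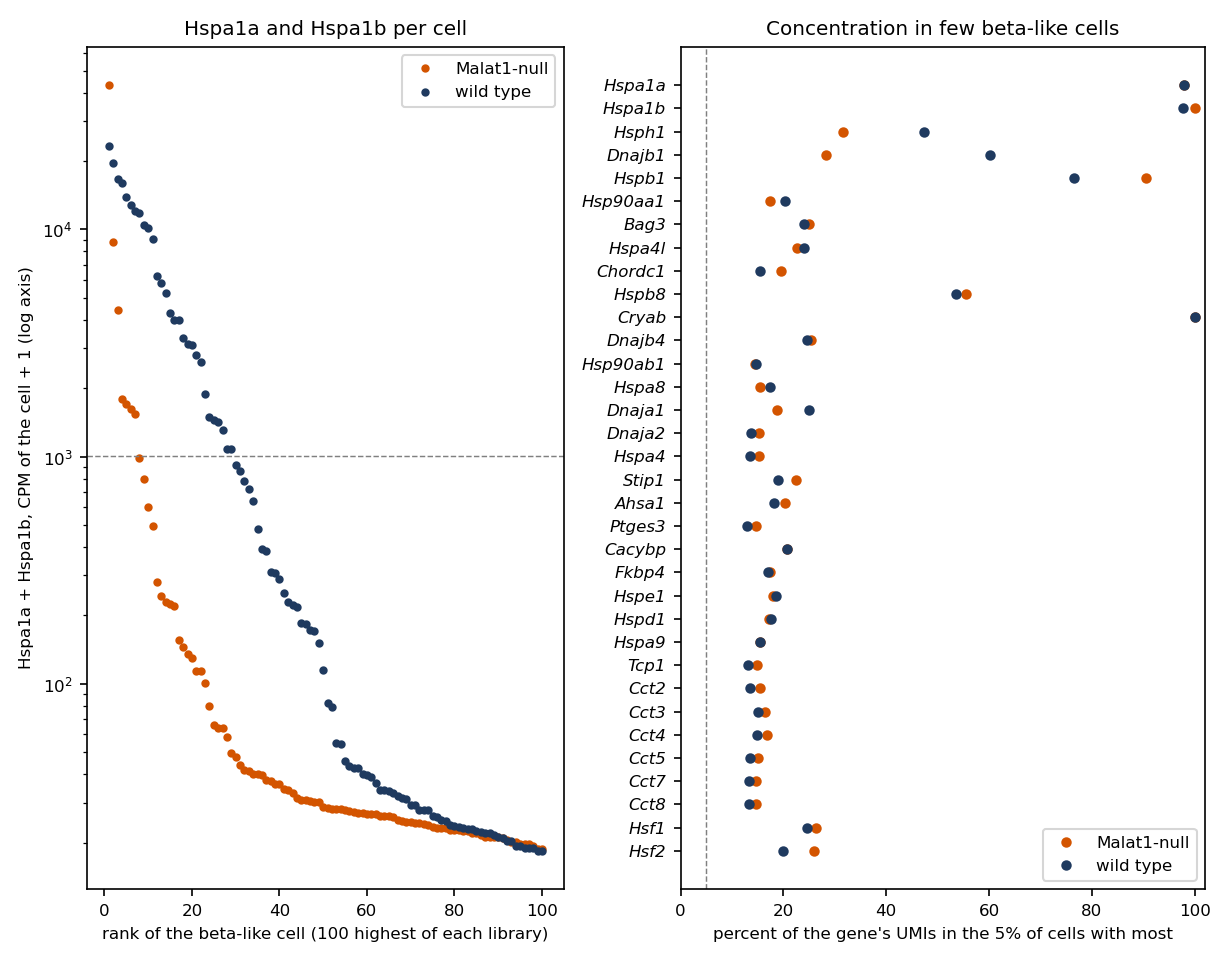
Left, summed Hspa1a and Hspa1b CPM of the 100 highest beta-like cells of each library by rank, plus 1 on a log axis, with the limit of 1000 CPM dashed; 7 Malat1-null and 29 wild-type cells lie above it. Right, the percent of each member's UMIs found in the 5% of beta-like cells with most (dashed line, an even spread), where Hspa1a, Hspa1b, Hspb1 and the sparse Hspb8 and Cryab stand far from the constitutive members.

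The Hspa1-high cells carried other heat-shock messages too. Relative to the other beta-like cells of their library, Dnajb1 was 19.1-fold higher in the Malat1-null and 43.2-fold higher in the wild-type Hspa1-high cells. In the same order Hspb1 was 18.9-fold and 21.3-fold higher, Hsph1 10.0-fold and 12.0-fold, and Dnaja1, the J-domain protein otherwise expressed throughout, 6.20-fold and 7.33-fold. Hsph1 and Dnajb1 were detected in 7 of 7 Malat1-null and 29 of 29 wild-type Hspa1-high cells. Of the 22 other members with at least 10 UMIs in the Malat1-null and 50 in the wild-type high cells, 12 were at least 2-fold higher in both libraries, against 3.32% of the 1415 genes counted the same way. That minimum was set on the high cells alone, so members low there drop out, among them Hspa4, Cct3, Cct4 and Cct7. Over all 32 other members, 14 were at least 2-fold higher in both libraries. Since the high cells were chosen by 2 of the members and the minimum by UMIs in those cells, these counts are a description and carry no test.

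By role, the messages that stood at least 2-fold higher in both sets of Hspa1-high cells at the limit of 1000 CPM spanned most of the folding cycle. They were the small heat-shock genes Hspb1 and Hspb8, the J-domain genes Dnajb1, Dnajb4 and Dnaja1, the exchange factor Hsph1 and the HSP70 gene Hspa8. Both HSP90 genes, the co-chaperones Stip1 and Cacybp, both subunits of the mitochondrial chaperonin (Hspe1 and Hspd1) and the factor Hsf2 completed the 14 of 32 members, Hspb8 and Hsf2 from under 10 or 50 UMIs. That breadth depended on the limit. Hspa8, Hsp90ab1, Hspd1 and Hsf2 did not pass at limits of 100 or 500 CPM, and Dnajb4 did not at 100 CPM. At 2000 CPM Hspd1 and Hsf2 did not pass, while Hspa4l, Ahsa1 and Fkbp4 did. Hsp90aa1 was 3.03-fold higher in Malat1-null and 4.10-fold in wild-type Hspa1-high cells, Hspa8 2.40-fold and 3.68-fold, and Hspe1 3.47-fold and 3.01-fold. None of the 7 TRiC subunits passed 2-fold in either library, with median ratios of 0.703 in Malat1-null and 1.20 in wild type. Hspa4, Dnaja2, Hspa9 and Hsf1 were below 1 in both. Bag3 was 1.00-fold in Malat1-null, where it rested on 6 UMIs, and 3.04-fold in wild type.

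Hspa1-high cells were shallower than the other beta-like cells, with medians of 38546 UMIs and 2942 genes against 47983 UMIs and 5081 genes in Malat1-null. In wild type the medians were 35258 UMIs and 4012 genes against 62330 UMIs and 6064 genes. Their mitochondrial share was not higher, with medians of 0.877% against 1.19% in Malat1-null and 1.18% against 1.19% in wild type. The 10 alpha cell markers summed to 965 CPM in the high cells against 340 CPM in the others in Malat1-null (5 and 9 of 10 detected), and to 613 against 364 CPM in wild type (7 and 7 of 10). Most of that sum was Ttr, at 885 against 221 CPM in Malat1-null and 527 against 240 CPM in wild type, while the hormone gene Gcg was at 22.3 against 33.2 CPM and 7.53 against 26.5 CPM. Hspa5, the HSP70 of the endoplasmic reticulum, had 2258 CPM in the high cells against 671 CPM in the others in Malat1-null and 1770 against 533 CPM in wild type. Insulin transcripts were 67.6% of their UMIs against 58.9% in Malat1-null, and 50.6% against 51.9% in wild type. Outside the member list, Tnfrsf12a, Klf6, Rgs2, Jun, Oser1 and Atf3 were at least 4.03-fold higher in the high cells of both libraries, named after their values were seen. The immediate early gene Jun had 468 CPM in Malat1-null Hspa1-high cells against 92.2 CPM in the others, and 1144 against 226 CPM in wild type. Fos, another such gene, went the other way, at 12.7 against 49.7 CPM in Malat1-null and 58.6 against 169 CPM in wild type. Fosb was higher, at 12.7 against 3.59 CPM in Malat1-null and 61.1 against 32.2 CPM in wild type. The part of depth or of the alpha cell markers in these ratios was not tested.

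Across beta-like cells thinned to 5000 UMIs, Hspa1a and Hspa1b varied together (Pearson r of log counts 0.896 over 1761 Malat1-null cells and 0.921 over 899 wild-type cells). Hspa1a and Dnajb1 had r of 0.357 in Malat1-null and 0.679 in wild type. Over the 21 pairs of TRiC subunits the median r was 0.013 in Malat1-null and 0.032 in wild type, from sparse counts. Outside the list, the genes nearest to the summed inducible members were St13, Actb, Gnas, Rps14, U2surp, Nudc, Limch1, Rpl28, Gm16286 and Serbp1. The smaller of their 2 values was at most 0.133, which is too weak to be a finding, and all cells of a library share its depth and free RNA.

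Beta-like cells fell into 5 clusters that were made without the 34 members, and the clusters held different shares of the 2 libraries. The cluster led by Slc2a2, Glp1r and Ucn3 held 30.6% of Malat1-null and 16.3% of wild-type beta-like cells, and the one led by Cox6a2, Sdf2l1 and Hspa5 held 23.9% and 5.92%. The cluster led by Gem, Nfkbia and Cebpd held 19.2% of Malat1-null and 9.65% of wild-type cells. Most wild-type cells were in the cluster led by Pdyn, Mt2 and Mt1 (10.9% of Malat1-null and 38.9% of wild-type cells) and the one led by Snhg11, Glul and Gm26917 (15.4% and 29.2%). Hspb1 and Hspa1a were also among the leading genes of the Pdyn cluster, although the clustering was made without them. The part of the unequal cluster shares in the ratios over all beta-like cells was not tested.

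Within clusters the median of the inducible members was lower in the Malat1-null library in 4 of 5. In the Cox6a2 cluster, Hspb1 had 8.41 CPM in Malat1-null and 163 CPM in wild type (ratio 0.0516), and Hspa1a 11.5 and 158 CPM. There 11 of 30 members counted were at least 1.5-fold lower, against 4.19% of genes, and none higher, against 7.81%. Among the lower ones were Hsp90aa1 (300 CPM in Malat1-null, 519 CPM in wild type), Hsp90ab1, Dnaja1, Ahsa1, Cacybp and Hspe1. Without the barcode of each library with most UMIs of the gene, 8 of 29 were lower there, no longer Hsp90ab1, Dnaja1 and Ahsa1. In the Gem cluster 5 of 31 were lower (1.87% of genes) and 0 higher (3.52%), with Hspa1a at 1.95 CPM in Malat1-null and 216 CPM in wild type and Dnajb1 at 13.1 and 57.0 CPM. In the Pdyn cluster 3 of 31 were lower (2.5% of genes) and 0 higher (1.43%), with Hspa1a at 23.5 and 94.1 CPM, while Hspb1 was at 135 CPM in Malat1-null and 122 CPM in wild type. In the Slc2a2 cluster 1 of 29 was lower (Hspb1, 1.79% of genes) and 0 higher (1.79%). In the Snhg11 cluster 0 of 32 were lower (3.65% of genes) and 1 was higher (1.83% of genes), namely Hspa1a at 32.0 CPM in Malat1-null and 20.0 CPM in wild type. That call rested on the Malat1-null barcode with 320 Hspa1a UMIs, of 328 in the cluster. Without the top barcode of each library Hspa1a was at 0.781 CPM in Malat1-null and 1.51 CPM in wild type there, under the count minimum, and 0 members were higher. Hspb1 was at 12.2 CPM in Malat1-null and 8.21 CPM in wild type in this cluster. Hspb1 was thus not lower in the Pdyn and Snhg11 clusters, which held most wild-type cells, though without the top barcode of each library it was at 104 CPM in Malat1-null and 113 CPM in wild type in the Pdyn cluster.

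The median log2 ratio over the inducible members followed the same order, at -0.63 in the Cox6a2 cluster, -0.56 in the Gem cluster, -0.33 in the Pdyn cluster, -0.30 in the Slc2a2 cluster and 0.06 in the Snhg11 cluster. Hspa1-high cells were found in all 5 clusters. They were 4 of 430 Malat1-null and 3 of 54 wild-type cells in the Cox6a2 cluster, 0 of 344 and 6 of 88 in the Gem cluster, and 1 of 195 and 17 of 355 in the Pdyn cluster. In the Slc2a2 cluster they were 1 of 550 Malat1-null and 2 of 149 wild-type cells, and in the Snhg11 cluster 1 of 277 and 1 of 266. The ratios within clusters thus rest on few cells, the smallest arm being the 54 wild-type cells of the Cox6a2 cluster.

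**Figure D3:**
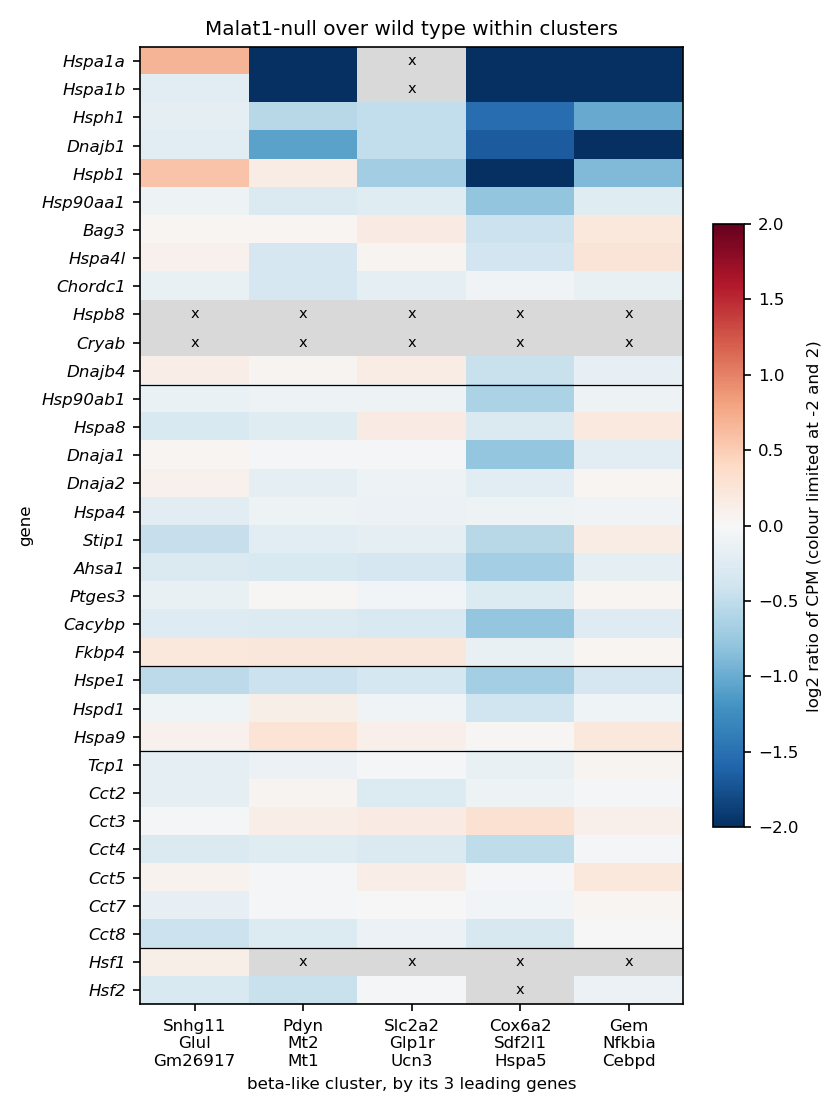
Log2 ratio of CPM, Malat1-null over wild type, for each member (rows) within the 5 beta-like clusters (columns, named by their 3 leading genes); colour is limited at -2 and 2, and grey cells with x are genes under the count minimum. Blue in the top rows shows lower Hspa1a, Hspa1b, Hsph1, Dnajb1 and Hspb1 in the Malat1-null library in most clusters, and the Cox6a2 column shows blue in the constitutive rows as well.

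The levels of the members differed between cell classes, which are compared as CPM of all UMIs without TMM factors. Among the classes compared, ductal-like cells were highest for 12 members in both libraries, endothelial-like cells for 5 and alpha-like cells for 1. The class with the highest level differed between libraries for the other 16 of 34. The Schwann-like cluster, too small to be ranked, was led by Cryab, Hspa1b and Hspa1a, with Hspb1 also among its leading genes. All members together made up 0.310% of the UMIs of Malat1-null and 0.399% of those of wild-type beta-like cells, against 0.952% and 1.23% in ductal-like cells and 1.04% and 1.02% in endothelial-like cells. Hormone, mitochondrial and Malat1 UMIs took up 65.0% of the Malat1-null and 60.2% of the wild-type UMIs of beta-like cells, which lowers the CPM of every other gene there. Differences between classes are therefore given only where they held in both libraries, with those UMIs counted and left out.

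On that basis Hspb1, Hspb8, Cryab and Bag3 were higher in endothelial-like than in beta-like cells. Hspb1 had 458 CPM in Malat1-null and 362 CPM in wild-type endothelial-like cells, against 28.4 and 69.1 CPM in beta-like cells. Bag3 had 287 CPM in Malat1-null and 227 CPM in wild-type endothelial-like cells, against 19.0 and 19.5 CPM. These were the 4 of 34 members at least 2-fold above beta-like cells, against 17.4% of the genes counted, so the share is not above the background, and 0 were lower (7.96%). In ductal-like cells Hspb8, Cryab, Cct2, Cct3 and Cct4 were at least 2-fold higher (5 of 34, against 11% of genes) and 0 lower (5.12%), with Cryab at 185 CPM in Malat1-null and 131 CPM in wild type, against under 1 CPM in beta-like cells. Hspb1 and Cryab were the 2 of 31 in acinar-like cells (2.84% of genes), with 5 of 31 lower (25.7%), namely Hspa1a, Hspa1b, Hspa4l, Ahsa1 and Hspa9. There Hspb1 had 263 CPM in Malat1-null and 399 CPM in wild type.

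The cells named B cell-like, T or NK-like and alpha-like had little inducible HSP70. Hspa1a had 2 UMIs in 310 Malat1-null and 1 UMI in 197 wild-type B cell-like cells, and Hspa1a, Hspa1b, Hspb1, Hsph1 and Bag3 were at least 2-fold below beta-like cells there (5 of 32, against 12.7% of genes, with 0 higher, against 11.3%). The first 3 of these were also lower in T or NK-like cells (3 of 32, against 12.6%, with 0 higher, against 14.3%) and in alpha-like cells (3 of 32, against 2.09%, with 0 higher, against 3.87%). In delta-like cells 0 of 32 members passed 2-fold in either direction, against 4.81% of genes higher and 1.3% lower. No alpha-like, endothelial-like, B cell-like, T or NK-like or acinar-like cell of either library was Hspa1-high. For the 49 Malat1-null and 29 wild-type alpha-like cells this allows shares of up to 6.12% and 10.3%, which includes the beta-like shares. An unnamed cluster of 13 barcodes (4 Malat1-null, 9 wild type) is in none of these classes. It was led by Il22, Hspa1b, Trbc2, Ltb and Hspa1a, with the T cell markers Cd3g and Trac also among its leading genes. It scored highest for beta cell markers. The statements on T or NK-like cells therefore do not cover these barcodes.

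**Figure D4:**
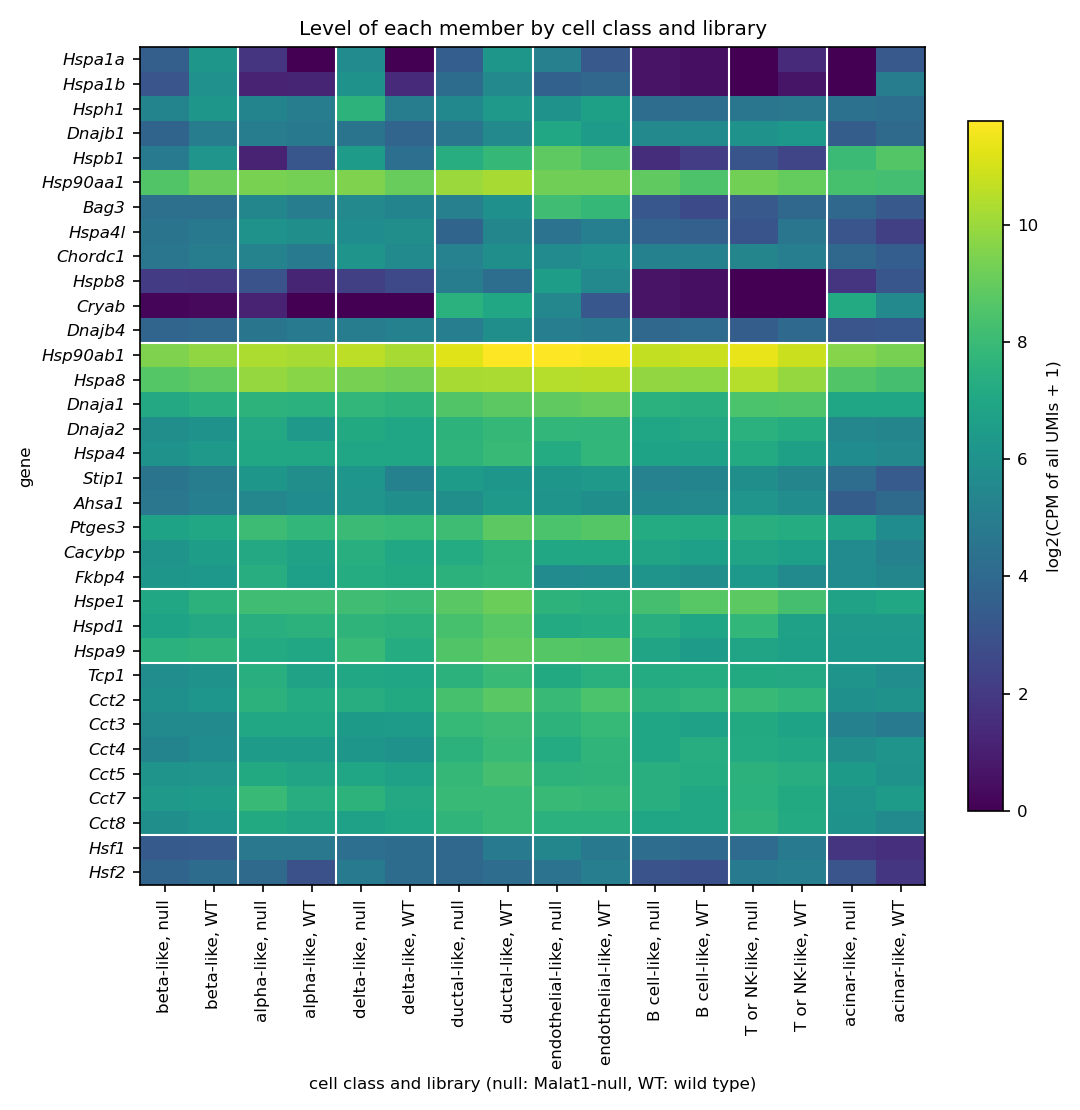
Level of each member as log2(CPM of all UMIs + 1) by cell class, with the Malat1-null library left of wild type in each pair; rows run by group (inducible, constitutive cytosolic, mitochondrial, TRiC, factors). Hsp90ab1, Hspa8 and Hsp90aa1 are bright in all classes, Hspb1 and Bag3 are brightest in endothelial-like columns or, for Hspb1 in wild type, in the acinar-like one, and Hspa1a and Hspa1b are dark in lymphocyte columns.

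Outside beta-like cells the comparison between genotypes rested on far fewer cells, and often on 1. In delta-like cells 4 of 27 members counted (Hspa1b, Hsph1, Hspb1 and Stip1) passed 1.5-fold upwards in Malat1-null, against 7.77% of genes, and 0 downwards, against 4.96%. A single Malat1-null barcode, the only Hspa1-high one of 35, held 100% of the Hspa1a and Hspa1b UMIs, 88.6% of the Hsph1 UMIs and 77.8% of the Hspb1 UMIs of that class. Without it Hsph1 was at 23.6 CPM of all UMIs in Malat1-null delta-like cells, and without the top wild-type barcode at 26.5 CPM. In ductal-like cells 8 of 34 members were lower (16.6% of genes) and 2 higher (10.5%). Of the 12 inducible members 7 were lower and 2 higher, with a median log2 ratio of -0.65, against -0.07 over all genes. The other lower one was a factor gene, and no constitutive cytosolic, mitochondrial or TRiC member passed 1.5-fold. Hspa1a had 5 UMIs (11.1 CPM) in 21 Malat1-null cells and 397 UMIs (71.0 CPM) in 140 wild-type cells, of which 1 wild-type barcode held 66.5%.

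In T or NK-like cells 4 of 26 members counted were higher in Malat1-null (6.05% of genes), all of them constitutive or mitochondrial, and 1 was lower (Hsf1, 11.0% of genes). Hspd1 had 226 CPM in Malat1-null and 103 CPM in wild-type cells, Hsp90ab1 2748 and 1780 CPM, Hspa8 1446 and 942 CPM, and Fkbp4 77.7 and 47.0 CPM. In endothelial-like cells Hspb8 and Hsf1 were higher (2 of 31, 8.35% of genes) and Hsph1 and Hspa4l lower (2 of 31, 13.2%). Among alpha-like cells Dnaja2 alone was higher (1 of 25, 6.59% of genes). None of the 27 members counted in B cell-like cells passed 1.5-fold, against 9.92% of genes higher and 10.4% lower there. Genotypes were not compared in acinar-like cells, where 45.7% of all counted genes were lower and 6.94% were higher, and the median barcode held 1695 UMIs in Malat1-null and 1619 in wild type.

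None of the other chaperones that met the count minimum passed 1.5-fold in beta-like cells. Of 46 other chaperones and co-chaperones (cytosolic, prefoldin, mitochondrial and heat-shock ubiquitin genes), 41 were counted. Of all 6177 genes counted, 1.76% were lower and 1.67% higher, so 0 of 41 is near the background. Hspa12a, an HSP70 relative under the count minimum, had 9.26 CPM in Malat1-null and 5.26 CPM in wild type (ratio 1.76, 1.55 to 2.01). The 15 chaperones of the endoplasmic reticulum all had log2 ratios above 0, with a median of 0.16 against 0.04 over all genes counted. That none of the 15 passed 1.5-fold is also near the background. Immediate early genes respond within minutes to signals and to cell dissociation. Of 13 counted, 5 were lower (Fos, Fosb, Jun, Klf4 and Klf6, against 1.76% of genes) and 1 was higher (Junb, against 1.67%). Klf2, which was not counted, had 14 UMIs in Malat1-null and 124 in wild type. Fos had 52.9 CPM in Malat1-null and 156 CPM in wild-type beta-like cells. The metal-binding metallothionein genes were lower as well, with Mt1 at 2078 CPM in Malat1-null and 5731 CPM in wild type, Mt2 at 418 and 1205 CPM, and Mt3 at 9.62 and 15.0 CPM.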

How the data were processed

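Raw UMI counts per gene and barcode were deposited without a barcode filter; the authors made them from 10x Genomics 3′ version 3 libraries, per the labels' protocols. The file headers name Cell Ranger 4, while the submitters' processing notes name Cell Ranger 2.1.0 and the build mm10, and the version used could not be settled. Barcodes with at least 1000 UMIs (5364 in both libraries) were kept, of 6794880 per library.

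Cells were clustered together in scanpy 1.11.5 on 2000 variable genes without the 34 members, Malat1, sex-linked and mitochondrial genes (30 components, 15 neighbours, Leiden at resolution 1). Clusters were named from listed markers (a score of at least 0.6 and 3 markers at 20 CPM), with limits against mixed or shallow clusters that were set after a first clustering was seen. Scrublet marked 7 Malat1-null and 21 wild-type barcodes as doublets, too few in Malat1-null to show that it worked, and they were kept. UMIs were summed per class and library and scaled with edgeR 4.0.16 TMM factors. Ratios have exact conditional Poisson intervals of 95%, covering counting error only. Levels within cells, between cell classes, of Hspa1-high cells, and of delta-like cells without a top barcode are CPM of all UMIs without these factors. The values without a top barcode within beta-like clusters, and the log2 ratios without it over all beta-like cells, use the TMM factors. With 1 library per group no test was made. The procedure was tried on simulated counts that held counting error only. They had no spread between cells or libraries, so they cannot speak for genes concentrated in few cells.

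All 34 members are named, with the counted genes of the context lists past 1.5-fold, and Hspa12a and Klf2 from under the count minimum, and the 10 genes nearest in correlation. The members and lists were chosen with earlier results of these data known. Reads could be shared with near-identical pseudogenes at the 3′ ends of 8 members (Hspb1, Hsp90aa1, Hspa8, Dnaja1, Ahsa1, Cacybp, Hspe1 and Hspd1).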

Additional observations from a re-analysis of the deposited data

How the results depend on the processing

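The number of members that passed 1.5-fold upwards in the Malat1-null library stayed at 0 under all 14 other settings tried for it. Downwards it was 5, the same 5 genes, except in 3 settings. It was 4 at a fold of 2, without Hsph1. It was 1 at a mean CPM of at least 50, since Hsph1 alone of the 5 was then counted. It was 1 without the 5% of cells highest in inducible members, namely Hspb1. The cause of the last was not tested beyond the concentration in few cells that the report gives.

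The median log2 ratio of the inducible members lay between -0.53 and -0.19. With total counts in place of TMM factors the median of all genes moved to -0.15, and those of the constitutive cytosolic, mitochondrial and TRiC members to -0.28, -0.28 and -0.26. With the mean of CPM per cell the constitutive median was -0.16. The members at least 2-fold higher in both sets of Hspa1-high cells were 14 at 1000 CPM. They were 9 at a limit of 100 CPM, 10 at 500 CPM and 15 at 2000 CPM, limits added after seeing the data. At 2000 CPM the high cells were 3 in Malat1-null and 22 in wild type. Of 408 values of single genes under these alternatives, 347 stayed within their counting error and 61 moved, none of them a called gene that changed direction. Within clusters, leaving out the top barcode of each library (added after seeing the data) moved 1 count of calls by over 1.5 times, that of members higher in the Snhg11 cluster, which became 0. No paired analysis was possible because each group is 1 library. Depth limits Cryab, Hspb8 and Hsf1 in beta-like cells and most inducible members in the small classes.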
